A study of Mus musculus with 12 samples.

Results

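Connexins are the proteins that build gap junctions, the channels that join the interiors of neighbouring cells. 7 connexin genes were followed here in RNA-seq of the mouse cochlea after deletion of the Notch ligand gene *Jag1*, and were taken by gene symbol from the 28686 symbols of the count table, which holds 20 connexin genes in all. They are *Gjb2*, *Gjb6* and *Gja1* of the epithelium and lateral wall, *Gjb1* and *Gjc3* of Schwann cells, *Gjd2* of neurons, and *Gjc1*, which is found in several cell types. All 7 passed a filter of a mean count of at least 5, which 18459 genes passed.

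Libraries were made from cochleae dissected at postnatal day 6 (P6), 1 per mouse, from 6 Sox2CreER/+Jag1fl/fl mutants and 6 Sox2+/+ littermate controls of a mixed C57BL/6;129SV strain, as the labels give it. The methods of the paper differ from the labels and name a C57BL/6 background for the CreER line and FVB/n for the floxed *Jag1* line. Both groups received tamoxifen at P0 and P1. Tamoxifen activates the CreER recombinase, which supporting cells express from *Sox2*, and deletes the floxed part of *Jag1*. CreER was absent from the controls, which come from a cross where every pup has at least 1 floxed *Jag1* allele, so the genotypes differed at *Sox2* as well as at *Jag1*, and the effects of the 2 alleles cannot be told apart. Mice carry the numbers 1 to 6 within a genotype in the labels, and control 1 to control 6 and mutant 1 to mutant 6 are used below as names.

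A connexin protein assembles into hexamers that dock between cells. The products of *Gjb2* and *Gjb6* are the main connexins of cochlear supporting cells and fibrocytes, where they form joint channels that carry ions and metabolites. Loss of *Gjb2* is a known cause of deafness. The products of *Gjb1* and *Gjc3* belong to myelinating Schwann cells, in which *Gjb1* forms channels across the layers of myelin, and that of *Gjd2* forms electrical synapses between neurons.

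In these cochleae the epithelial connexins *Gjb2* and *Gjb6* held nearly the same transcript level in both genotypes. The connexins of Schwann cells and neurons lay higher in most mutants, with fold changes of 1.87 for *Gjc3*, 2.37 for *Gjb1* and 4.75 for *Gjd2*, but their mutant and control ranges overlapped and varied widely from mouse to mouse. None of the 7 genes passed an adjusted p of 0.05 in edgeR's quasi-likelihood test, a threshold that 0.19% of all genes tested passed. At the same threshold limma-voom called 0 of the 7 and DESeq2 called 2, *Gjb1* and *Gjc3*, where DESeq2 called 3.37% of all genes. At an unadjusted p under 0.05, 3 of 7 members were higher in mutants (*Gjb1*, *Gjc3* and *Gjd2*) and 0 were lower, beside 6.52% of all genes higher and 4.04% lower. The same 3 genes stood at that unadjusted level when any 1 of the 12 libraries was left out, with *Gja1* added as lower without mutant 6.

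Total counts per library ranged from 28498549 to 36134983, and pairs of libraries within a genotype were further apart than counting error allows, with a chi-square per degree of freedom of 13.4 to 70.6. The targeted gene was lower in every mutant. *Jag1* lay at 24.2 to 42.9 CPM, its reads scaled to a common library size, in mutants and at 83.0 to 118 CPM in controls, which is -1.48 ± 0.13 on the log2 scale (SE; edgeR adjusted p = 0.000257). Markers of hair cells, supporting cells, fibrocytes, stria vascularis, vessels and macrophages were detected in every library, so the samples held the wider cochlea and not the sensory epithelium alone. In such bulk tissue, fewer cells of a type and less RNA per cell cannot be told apart.

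The levels of the 7 genes can be compared with each other only per transcript length, for which CPM was divided by the length in kilobases of the longest RefSeq transcript of each gene. On this scale *Gjb2* reached 548 ± 38.6 CPM per kb in controls (SD, n = 6) and *Gjb6* 154 ± 14.9, which placed them 55th and 285th of the 15642 tested genes with a length. *Gjc3* followed with 17.2 ± 4.77, *Gja1* with 12.9 ± 2.67 and *Gjc1* with 11.6 ± 0.70 CPM per kb. The ranges of *Gjc3* and *Gja1* overlapped in controls, as did those of *Gja1* and *Gjc1*, so the order among these 3 was not resolved beyond the spread between mice. *Gjb1* (0.685 ± 0.222) and *Gjd2* (0.221 ± 0.243) closed the order, and their ranges overlapped as well. In mutants *Gjc3* reached 32.1 ± 11.3 CPM per kb, and its lowest mouse, at 19.8, lay above the highest mouse for *Gja1*, at 17.3, so that these neighbours in the order did separate there.

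**Figure D1:**
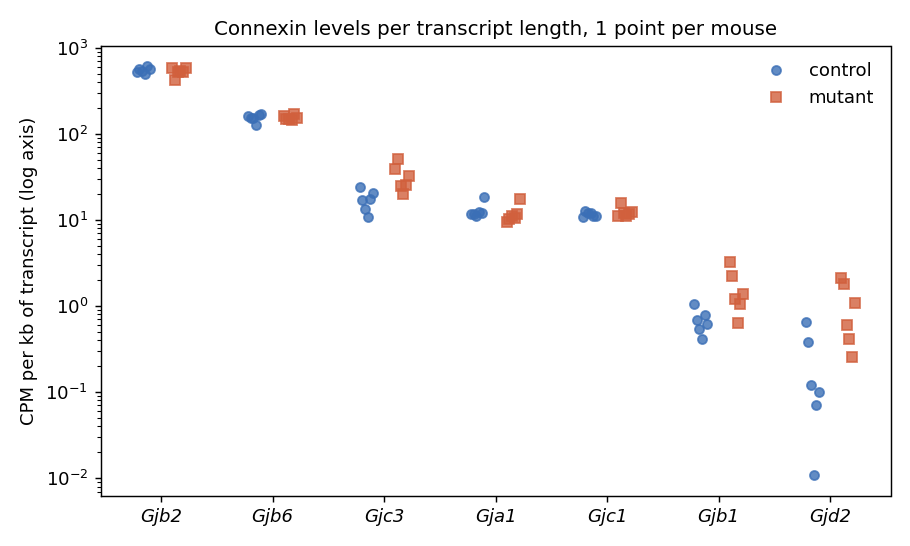
Level of each connexin gene in CPM per kilobase of transcript on a log axis, 1 point per mouse, circles for 6 controls and squares for 6 mutants. *Gjb2* and *Gjb6* lie far above the other genes in every mouse, and the squares of *Gjc3*, *Gjb1* and *Gjd2* extend above the circles of the same gene.

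Of the summed per-length level of all 20 connexin genes, *Gjb2* and *Gjb6* together made up 93.2% ± 0.69 in controls and 90.9% ± 2.34 in mutants (SD, n = 6 each). *Gjc3* made up 2.27% ± 0.59 in controls and 4.34% ± 1.77 in mutants. These shares were not tested. The lowest joint share of *Gjb2* and *Gjb6* in any mouse was 86.5%, in a mutant, and because both genes are also expressed by fibrocytes, the shares do not separate the epithelium from the lateral wall.

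*Gjb2* encodes the most abundant cochlear connexin. It lies on chromosome 14 (GRCm38 chr14:57098600-57104702, minus strand), and *Gjb6* lies next to it at chr14:57123303-57133611 on the same strand, with 18600 bases between the genes. *Gjb2* ranged from 1200 CPM through a median of 1319 to 1459 CPM in controls, and from 1019 through 1281 to 1410 CPM in mutants. The groups overlapped over most of their range, and the lowest value belonged to mutant 2. The fold change was 0.963, with 0.860 to 1.08 as the interval of 2 standard errors on either side (edgeR adjusted p = 0.914).

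*Gjb6* encodes the connexin that shares channels with the *Gjb2* product. Its controls ranged from 269 CPM in control 4 through a median of 329 to 356 CPM, and its mutants from 301 through 314 to 356 CPM. The mutants lay within the range of the controls. The fold change was 0.991 (0.895 to 1.097 over 2 standard errors; edgeR adjusted p = 0.985), and its sign depended on which mouse was included. Within a mouse, the log2 ratio of *Gjb6* to *Gjb2* counts was -2.03 ± 0.10 in controls and -1.98 ± 0.17 in mutants (SD, n = 6 each), a ratio of raw counts that is independent of scaling and was not tested. The lowest *Gjb2* library, mutant 2, had the highest ratio, at -1.72, since its *Gjb6* value of 309 CPM was close to the mutant median.

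**Figure D2:**
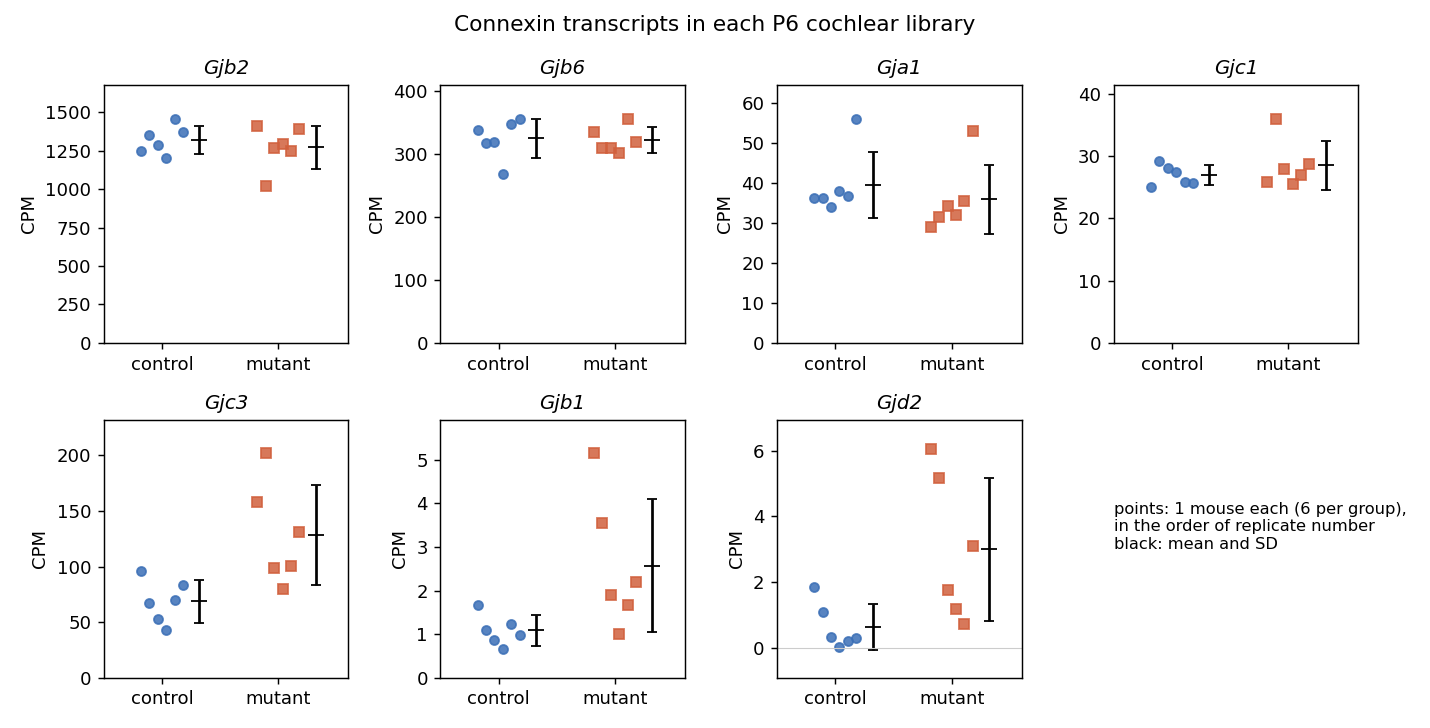
Level of each of the 7 connexin genes in CPM on a linear axis, 1 point per mouse in the order of replicate number, with the group mean and SD in black. The points of *Gjb2*, *Gjb6* and *Gjc1* overlap between genotypes, control 6 and mutant 6 stand high for *Gja1*, and mutants 1 and 2 stand high for *Gjc3*, *Gjb1* and *Gjd2*.

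*Gja1* encodes the most widespread connexin of the body, found in fibroblasts, bone-forming cells and glia among others, and lies at chr10:56377330-56402513 on the plus strand. It ranged from 34.1 through a median of 36.5 to 56.2 CPM in controls and from 29.0 through 33.2 to 53.1 CPM in mutants. In each genotype the highest value belonged to the mouse numbered 6, and the other 5 lay at or below 38.0 CPM in controls and 35.6 CPM in mutants. The log2 fold change was -0.14 ± 0.15 (SE; edgeR adjusted p = 0.860). Without these 2 libraries, an alternative chosen after the values had been seen, it was -0.16 ± 0.07 (edgeR adjusted p = 0.530).

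Control 6 and mutant 6 also had the highest marker levels of neutrophils and of bone-forming cells, from lists written after the values of *Gja1* had been seen. The summed CPM of 8 neutrophil genes was 56.0 in control 6 and 35.8 in mutant 6, against 1.68 to 13.3 in the other 10 libraries. The sum of 8 genes of bone-forming cells was 1631 and 1416 CPM in these 2 libraries and 855 to 1252 CPM in the others. *Bglap*, the osteocalcin gene made by osteoblasts, was highest in the same libraries, at 29.4 and 17.9 CPM, and lay between 0.191 and 11.6 CPM elsewhere. The part of these cells in the *Gja1* values was not tested.

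**Figure D3:**
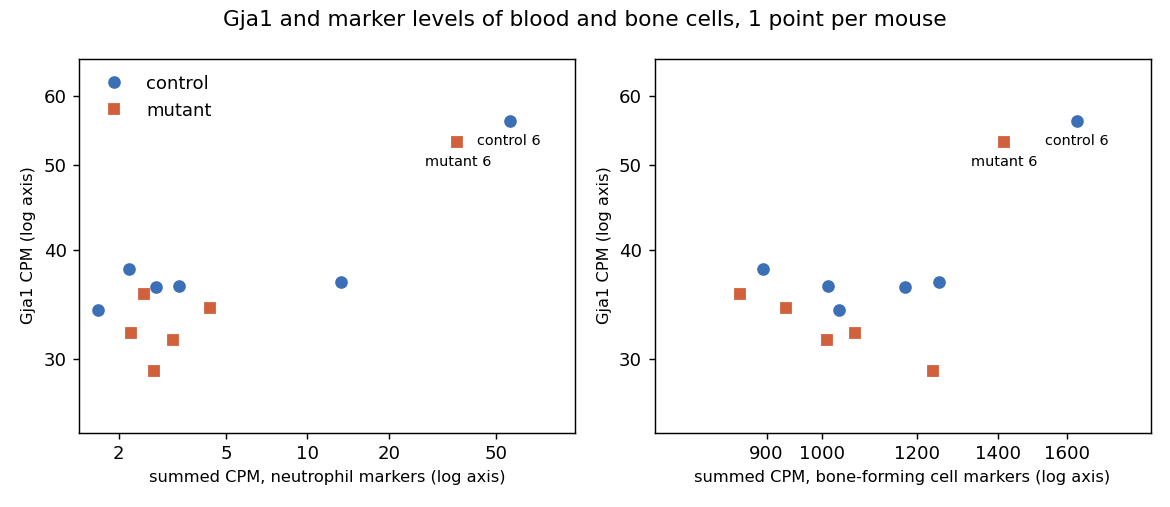
*Gja1* in CPM against the summed CPM of neutrophil markers (left) and bone-forming cell markers (right), all on log axes, 1 point per mouse. Control 6 and mutant 6, at 56.2 and 53.1 CPM of *Gja1*, have the highest sums of both lists, and the other 10 mice lie together at or below 38.0 CPM.

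*Gjc1*, on chromosome 11 (chr11:102799579-102819700, minus strand), encodes a connexin of vascular, cardiac and neural cells. It ranged from 25.0 through a median of 26.7 to 29.3 CPM in controls and from 25.5 through 27.5 to 36.1 CPM in mutants. The groups overlapped, and mutant 2 alone lay above the highest control. The fold change was 1.06 (0.943 to 1.19 over 2 standard errors; edgeR adjusted p = 0.844).

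*Gjc3*, a connexin of Schwann cells that lies at chr5:137953461-137963098 on the minus strand, was the most abundant of the Schwann cell and neuronal members in every mouse. Controls ranged from 43.3 CPM in control 4 through a median of 68.6 to 95.7 CPM in control 1. Mutants ranged from 79.4 CPM in mutant 4 through a median of 116 to 202 CPM in mutant 2. Thus 5 of 6 mutants lay above the highest control and all 6 above the control median, and the groups overlapped through mutant 4. The log2 fold change was 0.90 ± 0.24 (SE; unadjusted p = 0.00301, edgeR adjusted p = 0.129). DESeq2 gave 0.90 ± 0.22 with an adjusted p of 0.00442.

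*Gjb1* encodes the connexin of Schwann cell myelin that is mutated in an X-linked form of Charcot-Marie-Tooth neuropathy, and lies on the X chromosome at chrX:101376378-101385629 on the plus strand. Its counts were low, at 21 to 47 reads in controls and 34 to 168 reads in mutants, so that counting error adds to the spread between mice. Controls ranged from 0.654 through a median of 1.04 to 1.67 CPM and mutants from 0.993 through 2.04 to 5.15 CPM. The highest values belonged to mutants 1 and 2, while mutant 4 lay below the control median, and 4 of 6 mutants exceeded the highest control. The log2 fold change was 1.24 ± 0.35 (SE; unadjusted p = 0.00332, edgeR adjusted p = 0.132), and the adjusted p in DESeq2 was 0.0210.

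Of the 7 genes, 6 had at least 1 promoter in a RefSeq table for GRCm38.p6 that holds 250 bases before and 50 bases after each start, and *Gjb1* had 4. These were searched on both strands for ACAAAG and ACAATG, letters within the sequences that SOX transcription factors, including SOX10 of Schwann cells, are known to bind. Of 32851 promoters of all genes, 18.7% held the first, 12.6% the second and 2.68% both, and the 2 motifs do not overlap here. Among the 6 genes only *Gjb1* held either, in 2 of its 4 promoters. It also had more promoters to search than any other of these genes. The shares above are per promoter, so the matches do not set *Gjb1* apart from the other members. The 30-base windows around the matches are shown because *Gjb1* is the member for which letters of this kind were found, with the motifs in capitals, on the plus strand. In the second window CATTGT is ACAATG read on the other strand.
*Gjb1*, chrX:101376196-101376225: atacACAAAGcaatcacttttgttctggct
*Gjb1*, chrX:101383671-101383700: ccccACAAAGgtccCATTGTacagacactg
The match in the first window began 176 bases upstream of its start, and those in the second window 57 and 47 bases upstream of another. A match of 6 letters describes the sequence and is no evidence of binding. *Sox10* itself lay at 163 to 192 CPM in controls and 169 to 214 CPM in mutants, with overlapping ranges. The 2 promoters with the most CpG dinucleotides among the members were those of *Gjd2*, with 41 and a GC content of 75.0%, and of *Gjb2*, with 27 and 70.0%, against medians of 7 and 52.7% over all promoters.

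*Gjb1* and *Gjc3* were highest in the same pair of mice, mutants 1 and 2. Their within-mouse log2 ratio was -6.00 ± 0.21 in controls and -5.77 ± 0.46 in mutants (SD, n = 6 each), and the ranges overlapped. Set against *Gjb2*, which fibrocytes express as well as the epithelium, the log2 ratio of *Gjc3* was -4.31 in controls (-4.79 to -3.71) and -3.37 in mutants (-4.03 to -2.34). In 5 of 6 mutants it lay above the highest control. These ratios are descriptions and were not tested.

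Markers of Schwann cells stood higher in the same mutants. Of 16 marker genes tested, 0 were called in edgeR at an adjusted p under 0.05, and 15 had an unadjusted p under 0.05, each with a higher mutant level, with a median log2 fold change of 1.70 against 0.00 for all genes. Of all genes, 6.52% were higher at that unadjusted level. DESeq2 called 12 of the 16, all higher, where it called 3.37% of all genes, and limma-voom called 0 of the 16. Their summed level ranged from 539 CPM in control 4 to 1540 CPM in control 1, and from 1304 CPM in mutant 4 to 6254 CPM in mutant 1. In each genotype the lowest sum was found in the mouse with the lowest *Gjc3* and *Gjb1*, control 4 and mutant 4. The part of Schwann cell content in the *Gjc3* and *Gjb1* values was not tested.

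**Figure D4:**
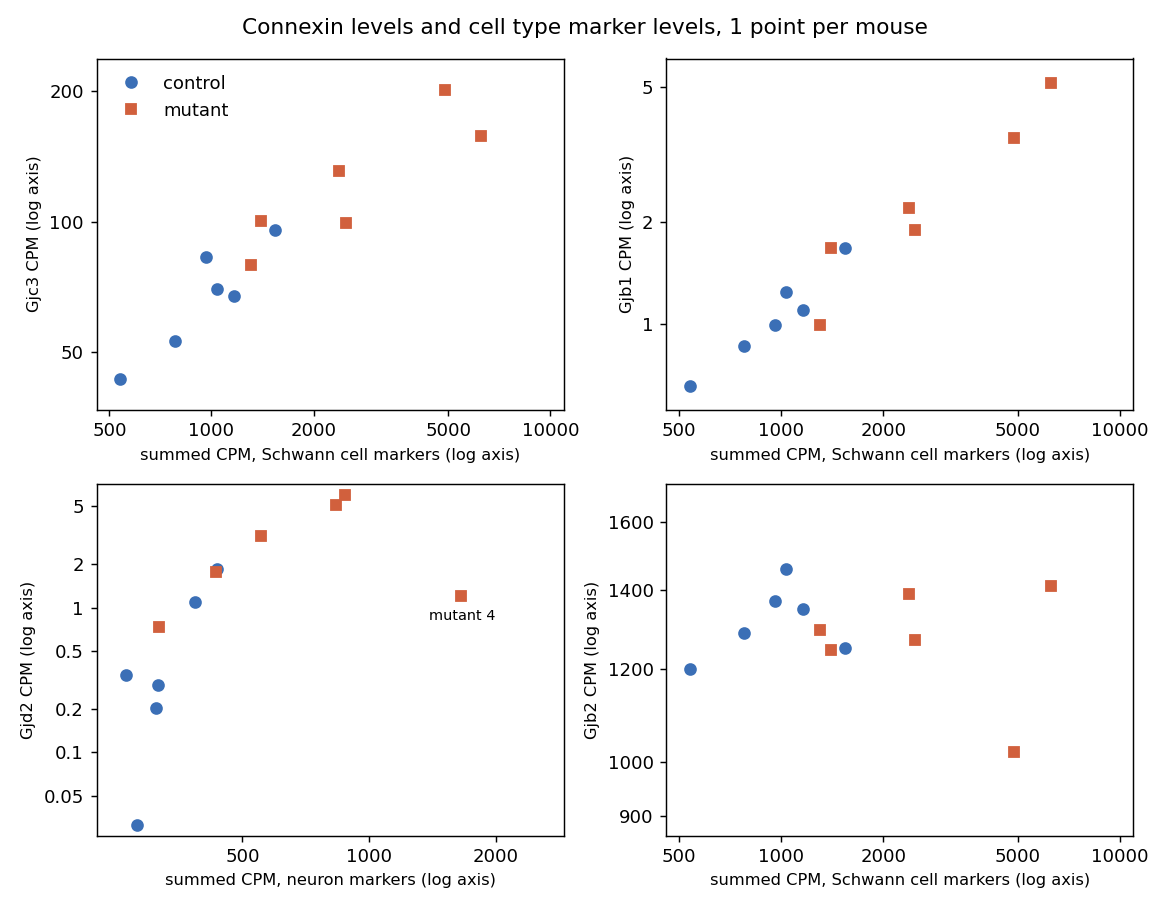
*Gjc3*, *Gjb1* and *Gjb2* against the summed CPM of Schwann cell markers, and *Gjd2* against that of neuron markers, all in CPM on log axes, 1 point per mouse. *Gjc3* and *Gjb1* climb along the marker sum in both genotypes, *Gjb2* does not, and mutant 4 stands apart for *Gjd2*, with 1.20 CPM at a sum of 1655 CPM.

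*Gjd2*, the connexin of electrical synapses, lies at chr2:114009601-114013619 on the minus strand and overlaps *A530058N18Rik* on the other strand. That gene was far lower than *Gjd2*, at a mean of 0.0964 CPM in controls and 0.329 CPM in mutants, and because the strand setting of the counting is not given in the sources used here, the reads of the overlap cannot be assigned. *Gjd2* was the rarest member, with 1 to 52 reads in controls and 27 to 197 reads in mutants. Controls ranged from 0.0312 CPM in control 4 through a median of 0.317 to 1.85 CPM in control 1. Mutants ranged from 0.738 CPM in mutant 5 through a median of 2.43 to 6.04 CPM in mutant 1. All 6 mutants lay above the control median and 3 above the highest control. The log2 fold change was 2.25 ± 0.74 (SE; unadjusted p = 0.0103, edgeR adjusted p = 0.228), and the adjusted p in DESeq2 was 0.107.

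Of 18 neuron markers tested, 0 were called in edgeR at an adjusted p under 0.05, 14 had an unadjusted p under 0.05, each with a higher mutant level, and the median log2 fold change was 2.48. Of all genes, 6.52% were higher at that unadjusted level. DESeq2 called 11 of the 18, all higher, where it called 3.37% of all genes, and limma-voom called 0 of the 18. Their sum ranged from 265 to 435 CPM in controls and from 318 to 1655 CPM in mutants. *Slc17a7*, the vesicular glutamate transporter of spiral ganglion neurons, ranged from 0.187 CPM in control 4 to 8.19 CPM in control 1 and from 2.13 CPM in mutant 5 to 31.3 CPM in mutant 1, with the lowest and the highest mouse of each genotype the same as for *Gjd2*. The highest marker sum belonged to mutant 4, in which *Gjd2* was 1.20 CPM and *Slc17a7* 7.42 CPM. That sum includes *Prph*, a gene of peripheral neurons, at 155 CPM in mutant 4 and 0.519 to 1.35 CPM in every other library. The mix of neurons behind the sum may therefore differ between mutant 4 and the other mice, which was not tested. The part of neuronal content in the *Gjd2* values was not tested.

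Other cell types were examined in the same way. Of 16 markers of supporting cells and epithelial ridges, 6 had an unadjusted p under 0.05 and all of these were lower in mutants, with a median of -0.19. Of all genes tested, 4.04% were lower and 6.52% higher at that level. The corresponding numbers of markers were 3 lower of 12 for fibrocytes and mesenchyme, 0 of 10 for the stria vascularis and 2 lower of 10 for vessels. For hair cells 1 of 12 was higher, *Pvalb*, in a list with a median of 0.01, and for macrophages 3 of 8 were lower. Whatever their p, the fold change was below 0 for 14 of 16 markers of supporting cells, 12 of 12 of fibrocytes, 10 of 10 of the stria vascularis, 9 of 10 of vessels, 8 of 8 of macrophages and 6 of 12 of hair cells, with medians between -0.20 and 0.01, beside 9057 of 18459 genes tested. Of the neutrophil list, 6 genes passed the filter, and all 6 had a fold change below 0 with a median of -0.68 and 0 at an unadjusted p under 0.05. Of the 8 genes of bone-forming cells, 7 had a fold change below 0, with a median of -0.12 and 0 at an unadjusted p under 0.05. None of these genes was called in edgeR or limma-voom at an adjusted p under 0.05. DESeq2, which called 3.37% of all genes, called 5 of them, *Sox2*, *Sox21*, *Car3* and *Csf1r* as lower and *Pvalb* as higher. *Sox2* is also among the 6 lower markers of supporting cells. Its locus differed between the genotypes through CreER, so an effect of that allele on its level cannot be told apart from an effect of *Jag1* deletion.

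For each member, the genes whose deviations from the genotype mean of log2(CPM + 0.5) correlated most with its own were sought among 15682 genes whose counts averaged at least 20. The 12 mice of this description share libraries and dissections with the gene itself. *Gjb1* was followed most closely by *Pmp22* (r = 0.966), *Pllp* (r = 0.963), *Cyp2j6*, *Ncmap* and *Cnp*, of which *Pmp22*, *Pllp* and *Ncmap* are on the Schwann cell list. Genes that followed *Gjc3* included *Nipal1* (r = 0.950), *Pou3f2* (r = 0.950), *B230206H07Rik* and *Myo16*, and *Gjd2* was followed by *Ina* (r = 0.973), *Fbxo40*, *Kcnip1*, *Aldh1a3* and *Slc17a7* (r = 0.952).

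The same search was made for the remaining members. *Gjb2* was followed by *Grm4* (r = 0.906), *Gm13889*, *Tsfm*, *Fam20c* and *Shisa8*, and *Gjb6* by *Trim68* (r = 0.924), a locus known by a clone name, *Vsig8*, *Anxa8* and *Sars2*, so neither gene was among the 5 nearest of the other. *Gja1* was followed by *Gm5483* (r = 0.927), *Retnlg* (r = 0.922), *1700040D17Rik*, *Stfa2l1* and *Stfa2*. *Retnlg* is a neutrophil gene with 188 reads in control 6, 101 in mutant 6 and at most 26 elsewhere. It is on the neutrophil list summed above, so its place here and that sum are not separate observations. *Gjc1* was followed by *Lama4* (r = 0.922), *Col14a1*, *Arhgap23*, *Thbs2* and *2310022B05Rik*.

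The other 13 connexin genes were scarce. Of these, 4 passed the filter, *Gja3*, *Gja4* and *Gja5* among them, and 0 of these 4 were called in edgeR, DESeq2 or limma-voom at an adjusted p under 0.05. *Gja5*, an arterial connexin, was at 1.12 ± 0.28 CPM in controls and 0.689 ± 0.208 in mutants (SD, n = 6 each), with all 6 mutants below the control median and a log2 fold change of -0.70 ± 0.23 (SE; unadjusted p = 0.00825, edgeR adjusted p = 0.201). It overlaps other annotated genes, so its reads may be shared. *Gja4*, another vascular connexin, was at 12.8 ± 1.47 and 12.4 ± 1.24 CPM. *Gja3*, a connexin of the lens, was at 0.217 ± 0.142 and 0.280 ± 0.103 CPM. Each of the remaining 9 had at most 10 reads in any library.

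Pannexins form membrane channels related in shape to connexins. *Panx1* was at 11.9 to 13.6 CPM in controls and 13.7 to 16.6 CPM in mutants. The groups did not overlap, as was the case for 0.618% of all genes in that direction, and the log2 fold change was 0.24 ± 0.07 (SE; edgeR adjusted p = 0.156). The log2 fold change of *Panx2*, a pannexin of neurons, was 0.57 ± 0.20 (SE; edgeR adjusted p = 0.258), and 0.33 ± 0.13 without mutant 4 (SE; edgeR adjusted p = 0.389), the library with the highest value, at 11.7 CPM against 4.51 to 6.70 CPM in the other mutants. The log2 fold change of *Panx3*, a pannexin of bone and cartilage, was -0.60 ± 0.56 (SE; edgeR adjusted p = 0.824). It ranged from 4.81 to 34.5 CPM in controls and from 2.41 to 18.9 CPM in mutants, with the highest values in control 6 and mutant 6.

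**Figure D5:**
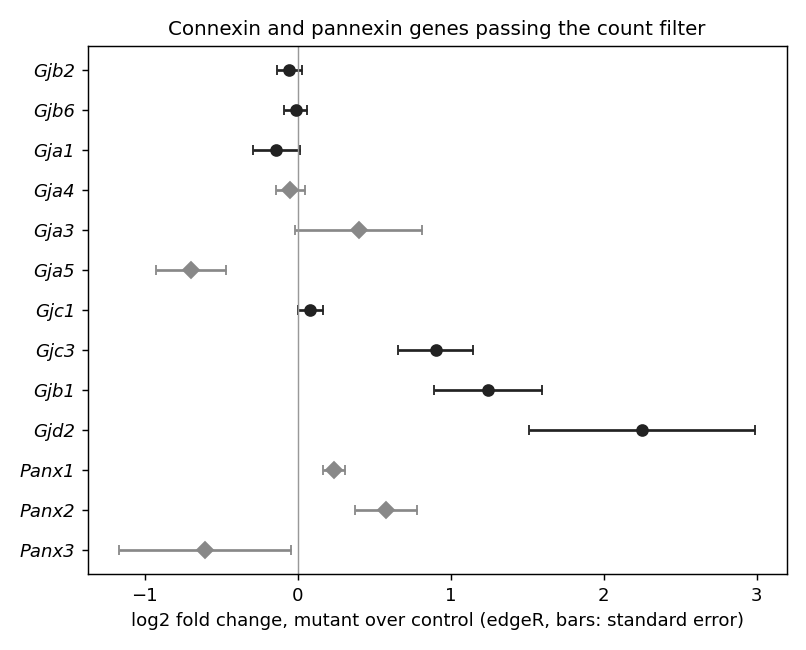
Log2 fold change of mutants over controls with its standard error for connexin and pannexin genes that passed the count filter, black circles for the 7 members and grey diamonds for the others. *Gjb2*, *Gjb6* and *Gjc1* lie near 0, while *Gjc3*, *Gjb1* and *Gjd2* lie to the right with increasing errors.

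Of 20 genes for connexin partners and trafficking, such as the scaffold *Tjp1*, 0 were called in edgeR at an adjusted p under 0.05 and 1 was lower and 0 higher at an unadjusted p under 0.05, with a median log2 fold change of -0.05. The smallest p belonged to *Tjp3*, a tight junction scaffold (-0.20 ± 0.08, SE; edgeR adjusted p = 0.371), followed by *Ocln*, *Src* and *Cav1*. Of 20 genes of potassium and ion recycling, the route in which the epithelial gap junctions take part, 0 were called and 2 were lower and 0 higher at an unadjusted p under 0.05, with a median of -0.12. The smallest p belonged to *Aqp4*, a water channel of supporting cells (-0.37 ± 0.17, SE; edgeR adjusted p = 0.437). DESeq2 and limma-voom called 0 genes of both lists. Of all genes tested, 4.04% were lower and 6.52% higher at an unadjusted p under 0.05 in edgeR.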

How the data were processed

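RNA-seq was performed by the authors on total RNA of cochleae from 6 mutant and 6 control mice at P6, as single-end reads of 100 nucleotides. The deposited table of the authors holds raw read counts by gene symbol, neither normalized nor pooled. The submitters' processing notes name Trimmomatic 0.32, STAR 2.4.2a, HTSeq 0.9.1, DESeq2 1.10.1 and GRCm38.p4. The annotation and the strand setting are not given in the sources used here. A deposited table of the authors' DESeq2 comparison was not used.

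The 18459 genes whose counts averaged at least 5 were tested in all 12 libraries with edgeR 4.0.16 in R 4.3.3 (glmQLFit with robust estimation, then glmQLFTest), using TMM factors and genotype as the only term. Benjamini-Hochberg adjustment covered all genes tested, and an adjusted p under 0.05 called 35 genes, 20 higher and 15 lower in mutants. On simulated counts of 18276 genes with 195 changed, the test called 181, of which 173 were changed. These counts were drawn separately for each gene from the spread estimated in the data, without variation shared by genes of a mouse. They check that the procedure runs correctly and do not measure how many real changes it finds in these libraries. CPM values use the TMM factors. Total counts per library were 28498549 to 36134983. The replicates are labelled as separate mice, and the spread between them limits most comparisons.

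Gene positions and transcript lengths come from GENCODE M21 on GRCm38, and promoters from RefSeq on GRCm38.p6. The alternatives were RLE and upper-quartile normalization, other count filters, estimation that was not robust, DESeq2 1.42.0, limma-voom (limma 3.58.1), a block for the replicate number, an adjusted p under 0.01, the shortest transcript, a pseudocount of 0.5 in ratios and leaving out each mouse. The members, gene lists and marker lists were chosen with earlier results of these data known. The genes named are the 7 members, *Jag1*, the other connexins and pannexins, up to 4 genes of the partner and ion lists with the smallest p, the markers needed for a statement and the 5 genes nearest to each member. Some genes that this rule names are not reported here.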

Additional observations from a re-analysis of the deposited data

Results flagged for a closer look

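In 28 groups of 6 libraries, the highest or lowest library was compared with the others by Dixon's criterion for a value that stands apart, which chance meets in about 5% of groups. It was met by 4 groups. *Gja1* in control 6 was 56.2 CPM against 34.1 to 38.0 CPM in the other controls, and *Gja1* in mutant 6 was 53.1 CPM against 29.0 to 35.6 CPM in the other mutants. *Gjc1* in mutant 2 was 36.1 CPM against 25.5 to 28.7 CPM. *Panx2* in mutant 4 was 11.7 CPM against 4.51 to 6.70 CPM.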

How the results depend on the processing

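The number of genes called was 57 without a filter, 619 in DESeq2 (473 higher and 146 lower), 19 in limma-voom, 131 with the replicate block, 8 at an adjusted p under 0.01 and 10 without control 6 and mutant 6. Leaving out 1 mouse gave 14 to 356 genes. The count was 14 to 22 without control 2, 3, 4, 5 or 6 or mutant 2 or 6, 54 without mutant 1, 66 without mutant 4 and 356 without mutant 5. Of the 7 connexins, and likewise of all connexin genes, DESeq2 called 2 (*Gjb1* and *Gjc3*), the replicate block 3 (*Gjb1*, *Gjc3* and *Gjd2*), and the other alternatives 0, including all 12 that left out a mouse. The cause of these differences was not tested.

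The labels give numbers but no pairing of the mice. The correlation of same-numbered mice ranged from -0.25 to 0.38, and the best match of a control was its own number in 2 of 6 cases, so the block was not taken as a pairing. With the replicate block, the log2 fold change was 1.13 for *Gjb1* (edgeR adjusted p = 0.0469), 0.88 for *Gjc3* (edgeR adjusted p = 0.0235) and 2.47 for *Gjd2* (edgeR adjusted p = 0.0178).

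Over 22 other fits, log2 fold changes ranged from 0.92 to 1.41 for *Gjb1*, 0.73 to 1.01 for *Gjc3* and 1.92 to 2.90 for *Gjd2*, so that these kept their direction. Without single mice, *Gjb2* ranged from -0.086 to 0.0022, which was reached without mutant 2, and *Gjb6* from -0.062 to 0.015. *Gjb6* was above 0 without control 5 (0.0075), control 6 (0.015), mutant 4 (0.0057), or control 6 and mutant 6 together (0.017). *Gja1* ranged from -0.28 without mutant 6 to -0.01 without control 6. With the shortest transcript, *Gjc1* in controls was 14.3 CPM per kb in place of 11.6. Depth limits *Gjd2* and *Gjb1* most, with as few as 1 and 21 reads.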

Other observations

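*Prph*, the gene of an intermediate filament of peripheral neurons, was at 155 CPM in mutant 4 and at 0.519 to 1.35 CPM in the other 11 libraries. Mutant 4 was also the mutant with the lowest *Gjc3*, at 79.4 CPM, and the lowest *Gjb1*, at 0.993 CPM.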
